A study of Mus musculus with 6 samples.

Results

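The eukaryotic ribosome is built from ribosomal RNA and about equal numbers of copies of each ribosomal protein, so the mRNAs of these proteins are among the most abundant and most evenly expressed of a growing cell. The large (60S) subunit holds the Rpl proteins and carries the peptidyl transferase centre, and the small (40S) subunit holds the Rps proteins and reads the mRNA. Many of these mRNAs begin with a C followed by a run of pyrimidines, the 5′ terminal oligopyrimidine (TOP) tract, through which the kinase complex mTORC1 and the RNA-binding protein LARP1 control their translation. That control acts on ribosome loading, which the RNA levels below do not measure.

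The genes were 86 protein-coding genes, of 55487 listed, whose mouse symbol begins with Rpl or Rps followed by a digit or is Rplp0, Rplp1, Rplp2 or Rpsa. The 10 Rps6k kinases were dropped by symbol, as were 6 protein-coding genes with -ps in their symbols. Of the 86, 46 encode 60S proteins, 31 encode 40S proteins, and 9 are paralogs or other genes that the symbol rule catches. Those 9 are Rpl3l, Rpl7l1, Rpl10l, Rpl22l1, Rpl36al, Rpl39l, Rps27l, Rps27rt and Rps19bp1, the last of which encodes a binding partner of RPS19 and no ribosomal protein. Fau and Rack1 encode ribosomal proteins under other names and are given separately.

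RNA-seq covered untreated mouse embryonic fibroblasts, primary cells grown out of embryos, from wild-type (WT) and knockout (KO) cultures at passages 2, 3 and 4, a passage being 1 round of replating. Each combination of genotype and passage had 1 library, 6 in all. The title of the series concerns mTORC1, the CCL24-CCR3 chemokine axis and granulomas, and the labels name neither the gene knocked out nor the number of embryos, so the absence of its product could not be checked. Genotype was read from the library titles, but the genotype tag contradicts the title in 2 of them, giving WT where passages 3 and 4 are titled KO. The 3 passages of a genotype may be 1 culture, and p-values then measure only the spread between these libraries. The 3 WT libraries had 73.3 to 87.9 CPM (counts per library size, with libraries put on the same scale by TMM) of the Y-linked Ddx3y and at most 0.30 of Xist, and the 3 KO libraries had at most 0.73 of Ddx3y and at least 416 of Xist, so sex and genotype cannot be told apart. Library totals ran from 24853121 to 67760880 expected counts. Fibroblast markers summed to 48943 to 59947 CPM in WT and 28311 to 32444 in KO. Macrophage markers were lower at each later passage, with sums of 450, 244 and 68.5 CPM in WT and 322, 105 and 50.7 in KO, while 4 of 8 erythroid markers were at 0 throughout.

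Many of these genes carry a pyrimidine run at an annotated start. RefSeq start sites (GRCm38.p6) were available for 66 of the 86 genes. A C within 10 bases of an annotated start, followed on the coding strand by at least 5 further C or T bases, was found in 35 of them (53.0%), against 21.9% of all 27025 genes in the same table. Runs of at least 8 bases were found in 24 of the 66 (36.4%), against 9.43% of all genes. The following stretches run from 20 bases before the start to 20 bases from it onward, with capitals from the C that begins the match to the end of its run. They show 4 genes with long runs, the paralog Rpl22l1, and Rpl41 and Rpl4, in which no match began within 10 bases of the start. The Rpl4 stretch does hold a run of C and T farther upstream.
Rpl35, chr2:39005112-39005151, minus strand: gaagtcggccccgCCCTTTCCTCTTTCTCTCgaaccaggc
Rpl27a, chr7:109519175-109519214, plus strand: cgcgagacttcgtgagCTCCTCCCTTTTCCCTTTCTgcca
Rps18, chr17:33955646-33955685, minus strand: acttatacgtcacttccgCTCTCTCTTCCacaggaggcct
Rps6, chr4:86857348-86857387, minus strand: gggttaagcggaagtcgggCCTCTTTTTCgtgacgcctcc
Rpl22l1, chr3:28805488-28805527, plus strand: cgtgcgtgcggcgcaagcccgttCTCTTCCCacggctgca
Rpl41, chr10:128549149-128549188, minus strand: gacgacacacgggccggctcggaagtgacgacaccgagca
Rpl4, chr9:64173367-64173406, plus strand: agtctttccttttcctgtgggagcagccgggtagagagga
A pyrimidine run at an annotated start is a match of letters and does not show that the mRNA begins there in these cells.

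The level of each mRNA was read in TPM (transcript abundance corrected for length and scaled to the same total in each library). Over the 77 proteins of the 2 subunits, mean TPM over the 6 libraries had a median of 959 and quartiles of 657 and 1203. The 31 genes of the 40S subunit had a median of 1005 TPM and a range of 454 to 1726. The 46 genes of the 60S subunit had a median of 900 TPM and a wider range, from 61.8 to 2640. The 77 genes together made up 6.66% to 8.43% of all TPM in a library.

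Rpl13a, a 60S protein also known from translational silencing of inflammatory mRNAs, was the most abundant, at 2695, 2595 and 2776 TPM in WT at passages 2, 3 and 4 and at 2799, 2538 and 2434 in KO. Rpl41, which encodes the smallest ribosomal protein, followed with 1777, 2258 and 2275 TPM in WT and 2338, 1886 and 1529 in KO. Rpl23a, at the exit of the peptide tunnel, had 1577, 1850 and 1952 TPM in WT and 1915, 1649 and 1548 in KO. In each of the 3 genes the WT and KO libraries overlapped. Rpl41 was above Rpl23a in 5 of the 6 libraries and below it in KO at passage 4, a gap smaller than the spread of either gene.

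The 3 least abundant subunit genes were Rpl36a, Rpl27 and Rpl5. Rpl36a had 240 to 272 TPM in WT and 254 to 286 in KO. Rpl27 had 149, 120 and 148 TPM in WT and 205, 147 and 131 in KO. Rpl5, which with Rpl11 binds 5S rRNA, was listed at 54.9, 52.7 and 62.4 TPM in WT and 58.2, 66.9 and 75.5 in KO, below Rpl27 in every library. These 3 low values go with reads that the authors' quantification placed on near-identical processed copies, which are retrotransposed, intronless relatives elsewhere in the genome.

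**Figure D1:**
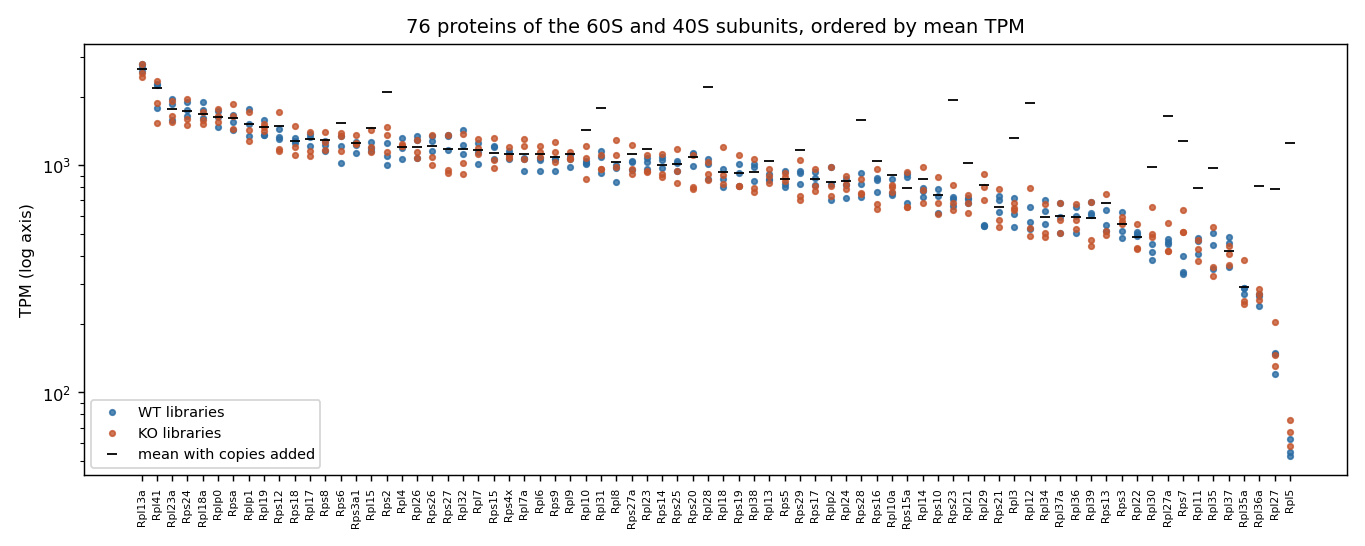
Level of 76 of the 77 subunit genes in TPM on a log axis, ordered by the mean over 6 libraries, with WT libraries in blue, KO libraries in orange and the mean after adding processed copies as a black bar. Most genes lie near the median of 959 TPM, Rpl5 lies lowest at a mean of 61.8 TPM, and its black bar stands at 1248.

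Copies were defined as other genes that have at least 50% of their 64-base words in 1 of the 86 genes. There were 151, belonging to 63 of the 86, and 141 of them were annotated as pseudogenes. For 16 genes over 25% of the reads of gene and copies together were on copies, and for 9 genes over 50%. The share was 94.0% for Rpl5, 74.6% for Rpl27, 60.7% for Rpl28 and 53.7% for Rpl36a. With copies added, Rpl5 stood at 1248 TPM, Rpl27 at 782 and Rpl36a at 807, and the coefficient of variation of mean TPM over the 77 genes was 37.8%, compared with 45.0% without them. A word match does not say from which of the loci a read came.

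For Rpl5 the main copy was Gm15500 (chromosome 7, 114705217 to 114706235), a transcribed processed pseudogene. Its 1018 aligned bases held 0 differences from the Rpl5 transcript (Rpl5 gene on chromosome 5, 107900502 to 107909005), so a read within those bases matches both. The first 45 coding bases, printed to show this identity with the start codon in capitals, are as follows.
Rpl5: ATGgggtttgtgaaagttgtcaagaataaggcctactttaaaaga
Gm15500: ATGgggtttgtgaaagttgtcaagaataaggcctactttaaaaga
Gm15500 had 650, 680 and 637 CPM in WT and 684, 623 and 554 in KO, against 33.4, 35.9 and 44.0 CPM for Rpl5 in WT and 42.0, 43.6 and 47.1 in KO. Values of Rpl5 alone are therefore uncertain.

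Between genotypes, none of the 84 tested genes was called different (edgeR quasi-likelihood test, Benjamini-Hochberg adjusted p under 0.05 over all genes), while 412 of 16603 genes were called, or 2.48%. The smallest adjusted p among the 84 was 0.0803, and 4 of them (4.76%) had an unadjusted p under 0.05, compared with 21.3% of all tested genes. The median log2 change in KO was -0.10 over the 84, against -0.01 over all tested genes, with 18 above 0 and 66 below. It was -0.09 over the 60S genes, -0.11 over the 40S genes and 0.09 over the 7 tested paralogs and other genes. On the TPM scale the median over the 84 was 0.01, against 0.08 over all tested genes. The family median thus lay below that of all genes on both scales, but its sign depended on the scale. No direction is given for the family. Rpl3l and Rpl10l, paralogs known from muscle and testis, had at most 0.036 CPM and 0 CPM and were not tested.

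The genes with no overlap between the 3 KO and the 3 WT libraries were 4 of 84 with higher KO values (4.76%), compared with 13.1% of all tested genes, and 0 of 84 with lower KO values, compared with 14.1%. The 4 were Rpl29, Rps7, Rpl7l1 and Rps19bp1. Rpl29, a 60S protein also described at the cell surface as a heparin-binding protein, had 151, 184 and 176 CPM in WT at passages 2, 3 and 4 and 318, 266 and 215 in KO. Rps7, a 40S protein that also binds MDM2, had 135, 154 and 146 CPM in WT and 271, 204 and 183 in KO. In both genes the KO library of passage 2 was the highest of the 6 and that of passage 4 the nearest to WT. The log2 change was 0.64 for Rpl29 (SE 0.158, edgeR adjusted p = 0.0803) and 0.59 for Rps7 (SE 0.154, edgeR adjusted p = 0.0919). With passage as a block, 11.1% of all genes were called and these were the 2 of the 84, both higher in KO, at 0.63 (edgeR adjusted p = 0.0440) for Rpl29 and 0.58 (edgeR adjusted p = 0.0450) for Rps7. DESeq2 without the block called 10% of all genes, among them again only Rpl29 and Rps7 of the 84.

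The main copies of Rpl29 and Rps7 were lower in the 3 KO libraries than in the 3 WT libraries. Gm8210 (chromosome 1, 43189156 to 43189638) and Gm13841 (chromosome 5, 115801677 to 115802159), 2 processed pseudogenes of Rpl29, each had 28.8, 35.5 and 34.7 CPM in WT and 0, 0.029 and 0.19 in KO. The 2 were given the same value in every library. Both differ from the Rpl29 coding sequence by C72A, C300T and T423C, with positions counted from the first base of the start codon and the member's base first. Gm6472 (chromosome X, 152909505 to 152910155), the main copy of Rps7, had 244, 282 and 308 CPM in WT and 230, 176 and 168 in KO. It differs within the Rps7 coding sequence by T26G, G48A and G123T. Coding bases 52 to 92 of Rpl29 and 16 to 58 of Rps7 are shown with the differing bases in capitals, since within the coding sequence only such bases separate a read of the gene from a read of its copy.
Rpl29: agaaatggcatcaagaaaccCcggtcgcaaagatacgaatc
Gm8210: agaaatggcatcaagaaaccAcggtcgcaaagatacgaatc
Rps7: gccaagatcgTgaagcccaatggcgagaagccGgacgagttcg
Gm6472: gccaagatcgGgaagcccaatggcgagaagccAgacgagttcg

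With the reads of all copies added to each gene, the log2 change of Rps7 between genotypes was -0.03 (SE 0.161, edgeR adjusted p = 0.943) and that of Rpl29 was 0.18 (SE 0.164, edgeR adjusted p = 0.573). Summed with its 6 copies, Rpl29 had 209, 256 and 246 CPM in WT and 319, 267 and 217 in KO, and the genotypes overlapped. Summed with its 3 copies, Rps7 had 380, 437 and 455 CPM in WT and 506, 384 and 353 in KO, and they overlapped too. Rpl30, a 60S protein that can bind its own transcript in yeast, moved in the same way, with a log2 change of 0.30 alone and -0.09 with copies. Its copy Gm12191 (chromosome 11, 49678710 to 49679057) differs by G96A within the coding sequence and had 84.1, 104 and 97.9 CPM in WT and 68.9, 51.6 and 42.3 in KO.
Rpl30: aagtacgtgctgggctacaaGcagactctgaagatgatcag
Gm12191: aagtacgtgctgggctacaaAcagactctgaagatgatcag
Coding bases 76 to 116 are shown here, with the differing base in capitals. Adding the copies was chosen after these values had been seen.

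**Figure D2:**
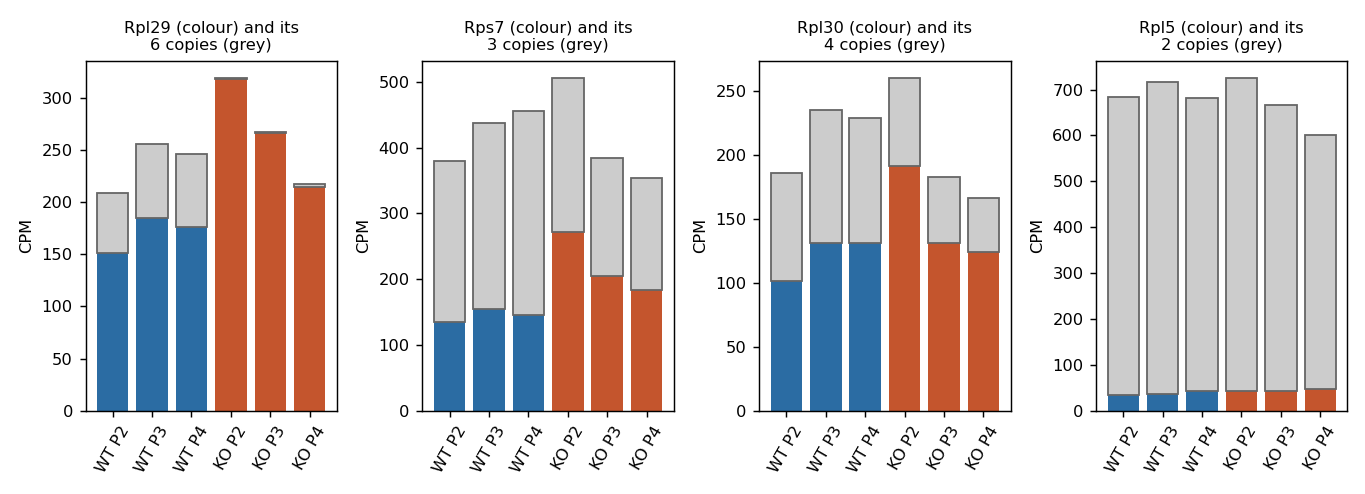
CPM by library for 4 genes (blue in WT, orange in KO) with the sum of their processed copies stacked in grey. Rpl29 and Rps7 alone are higher in the 3 KO libraries than in WT, and the stacked totals of gene and copies overlap between genotypes.

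The other pair without overlap are not core ribosomal proteins. Rpl7l1, a nucleolar relative of Rpl7 that acts in large-subunit assembly, had 69.4, 62.6 and 76.8 CPM in WT and 89.9, 91.8 and 82.0 in KO, with a log2 change of 0.34 (SE 0.107, edgeR adjusted p = 0.135). Rps19bp1 had 8.08, 7.68 and 10.7 CPM in WT and 13.0, 13.6 and 11.0 in KO, with a log2 change of 0.51 (SE 0.173, edgeR adjusted p = 0.153). In both, passage 4 held the smallest gap between genotypes.

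Among genes with a mean of at least 2 log2 CPM, the most negative genotype differences were those of Rps27, Rpl39, Rps20, Rpl22l1 and Rpl39l. Rps27, a zinc-finger protein of the 40S subunit, had 160, 226 and 205 CPM in WT and 206, 128 and 124 in KO, a log2 change of -0.37 (SE 0.223, edgeR adjusted p = 0.394). Rpl39, an X-linked gene for a short protein at the tunnel exit, had 171, 235 and 195 CPM in WT and 216, 126 and 125 in KO, a log2 change of -0.37 (SE 0.235, edgeR adjusted p = 0.421). Rps20 had 297, 409 and 387 CPM in WT and 369, 249 and 233 in KO, a log2 change of -0.36. Rpl22l1 stood at -0.36 and Rpl39l at -0.30. In Rps27, Rpl39 and Rps20 the KO library was above the WT library at passage 2 and below it at passages 3 and 4. The same crossing was found in 69 of the 84 genes (82.1%), compared with 7.41% of all tested genes.

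At passage 2 the KO library was higher than the WT library for 83 of the 84 genes, with a median log2 difference of 0.40. At passage 3 it was higher for 14 and lower for 70, with a median of -0.32. At passage 4 it was higher for 5 and lower for 79, with a median of -0.48. Over all tested genes the medians at the 3 passages were -0.03, -0.02 and -0.00. The 60S and 40S genes moved alike, at 0.40 and 0.38 at passage 2 and -0.44 and -0.52 at passage 4. Each of these is a difference between 2 libraries and has no replicate.

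From passage 2 to 3 to 4 in KO, 81 of 84 genes (96.4%) were lower at both steps, compared with 26.4% of all tested genes. The other 3 were Rpl5, Rpl7l1 and Rps19bp1. In WT, 77 of 84 were higher at passage 3 than at passage 2, with a median log2 step of 0.29, and between passages 3 and 4 the genes split 42 to 42. The KO library of passage 2 was the highest of the 6 for 50 genes (59.5%, against 18.0% of all tested genes) and the KO library of passage 4 the lowest for 75 (89.3%, against 16.2%).

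**Figure D3:**
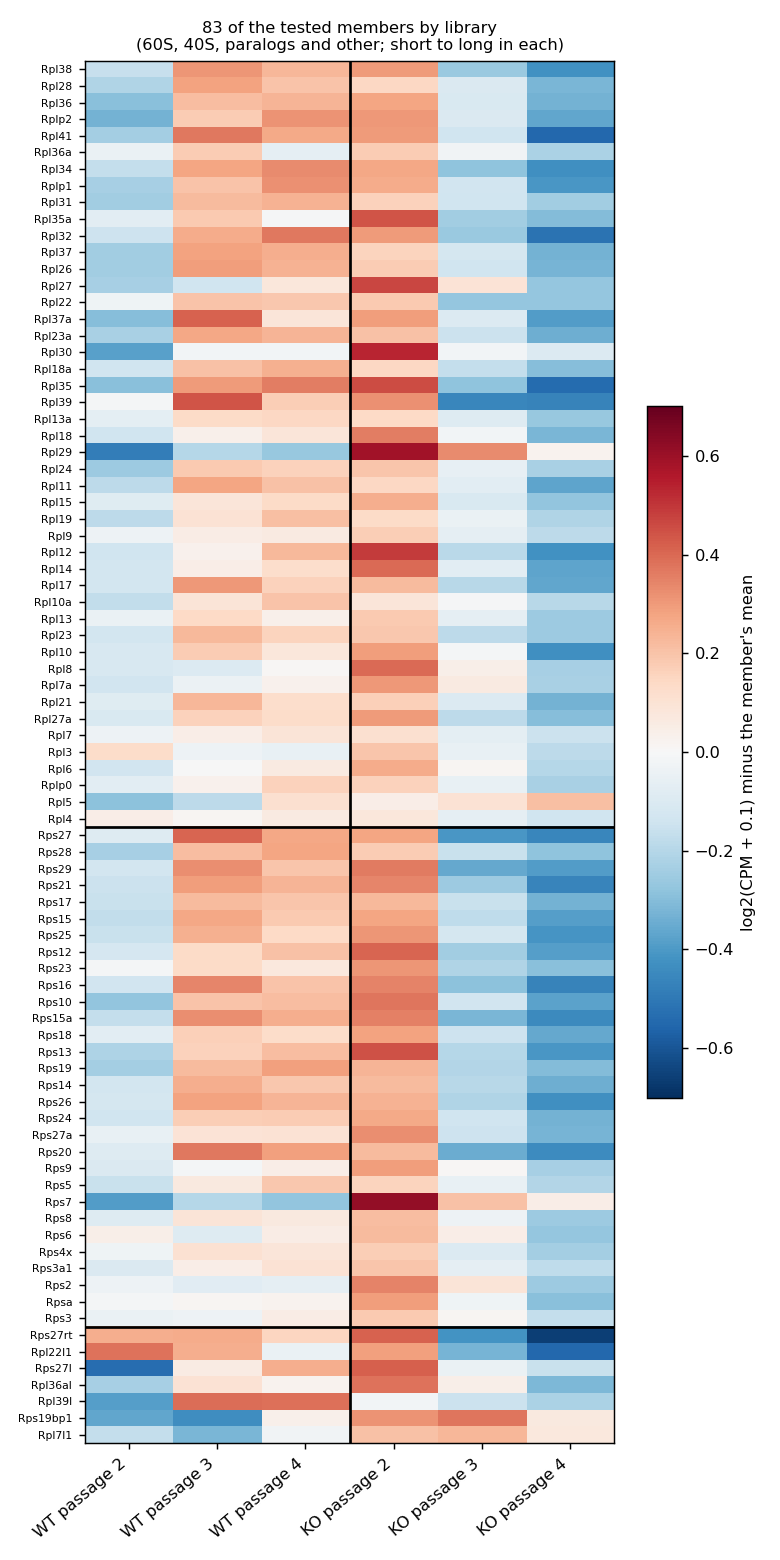
83 of the 84 tested genes in the 6 libraries, each cell showing log2(CPM + 0.1) minus that gene's mean, with 60S genes above, 40S genes next and paralogs and other genes below, from short to long in each. Columns for KO change from red at passage 2 to blue at passage 4 in nearly all rows, and columns for WT change from blue at passage 2 to red or pale at passages 3 and 4.

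Slopes over passage summarise this in 1 value per gene. The slope in WT was above 0 for 79 of 84, with a median of 0.16 log2 per passage, and 0 were called against 0.807% of all genes. The slope in KO was below 0 for 83 of 84, with a median of -0.29 log2 per passage, and 0 were called against 0.952% of all genes. The difference between the slopes, KO minus WT, was below 0 for all 84 tested genes, with a median of -0.44 log2 per passage, while over all 16603 genes 46.7% were below 0 and the median was 0.02. With 2 residual degrees of freedom edgeR called 0 of the 84 and 0% of all genes, and 70 of the 84 had an unadjusted p under 0.05, as did 1137 of all genes. The adjusted p of the 84 ranged from 0.548 to 0.899. DESeq2 called 0.5% of all genes and 13 of the 84, all with a lower slope in KO. With no filter on low counts edgeR called 0.915% of all genes and 34 of 85 in the family, also all lower. The call thus depends on both the tool and the filter. On the TPM scale the median of all genes moved to 0.15 and that of the 84 to -0.25, with 77 of 84 below 0.

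The 13 genes that DESeq2 called included Rpl12, Rpl14, Rpl32, Rpl34, Rpl35, Rpl41, Rplp1, Rplp2, Rps10, Rps12, Rps13 and Rps27l. Rplp1, Rplp2 and Rpl12 belong to the ribosomal stalk and its base, where translation factors bind. Rpl35, at the tunnel exit, had the largest slope difference, at -0.82 (SE 0.154, edgeR adjusted p = 0.548, DESeq2 adjusted p = 0.00195). It had 101, 152 and 158 CPM in WT and 169, 101 and 85.0 in KO, and the order of the genotypes was reversed after passage 2. With its copy added the slope difference of Rpl35 was -0.77. Rplp2, a stalk phosphoprotein, had 130, 185 and 204 CPM in WT and 202, 152 and 127 in KO, a slope difference of -0.66. Rps13, a 40S protein, had 133, 172 and 179 CPM in WT and 210, 134 and 116 in KO, a slope difference of -0.64. The smallest differences were those of Rpl3 (-0.10), Rpl4 (-0.12) and Rpl5 (-0.12), whose effective lengths were 943, 1429 and 1138 bases.

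The size of the slope difference varied with transcript length. Over the 84 genes, Spearman's rho between slope difference and mean effective length (the stretch of a transcript on which a read can start) was 0.68, and with mean TPM it was 0.09. The median slope difference was -0.54 for the 13 genes under 400 bases, -0.50 for the 37 genes from 400 to 600, -0.36 for the 19 from 600 to 800, -0.29 for the 9 from 800 to 1000 and -0.23 for the 5 from 1000 to 1500. Genes share their libraries, so these are descriptions of the 6 libraries.

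Other protein-coding genes also had slope differences that were more negative the shorter the transcript. Outside the family and its copies, the median slope difference was -0.56 for 91 genes under 400 bases, -0.38 for 258 from 400 to 600, -0.24 for 462 from 600 to 800, -0.18 for 557 from 800 to 1000 and -0.08 for 1896 from 1000 to 1500. It was 0.07 for 4833 genes of 3000 bases or more. In genes of at least 100 TPM the values were -0.61 for 35 genes under 400 bases and -0.41 for 68 from 400 to 600, and rho with length was 0.56 over 1256 genes. The 349 other genes under 600 bases also crossed between passages, with median KO minus WT differences of 0.41, -0.22 and -0.35 at passages 2, 3 and 4. The ribosomal protein median differed from that of other genes by 0.02 under 400 bases and by -0.12, -0.12, -0.11 and -0.15 in the next 4 bins, up to 1500 bases. For Rpl7l1, the 1 gene from 2000 to 3000 bases, it differed by -0.16. These gaps were not tested, and the part of length in the family's pattern was not tested. Using each library's effective lengths as offsets left the median over the 84 at -0.43. Such offsets compare a gene's own length between libraries, so they cannot remove a trend across genes of different length.

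**Figure D4:**
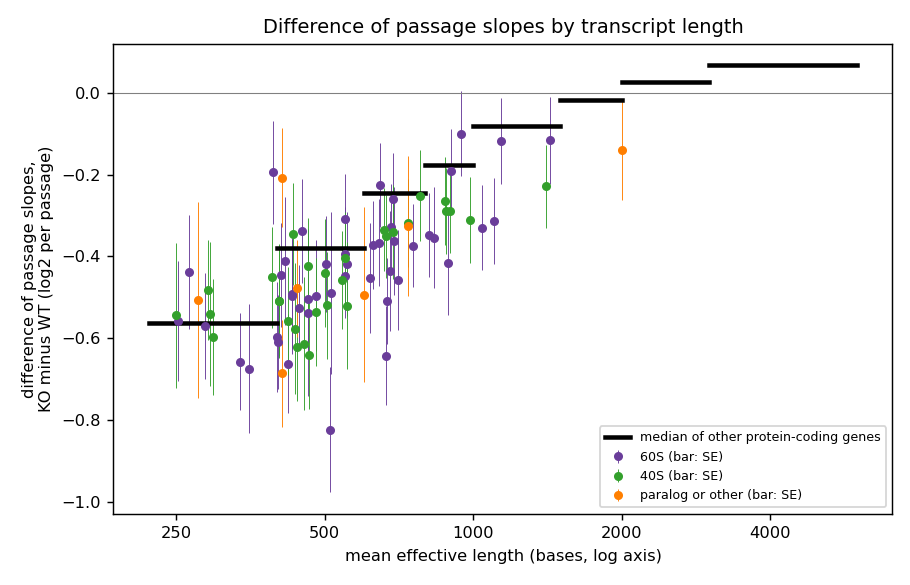
Difference of passage slopes (KO minus WT, log2 per passage) against mean effective length on a log axis, for 83 of the 84 genes as points with SE bars and for other protein-coding genes as the black median of each length bin. Points and bars both run from about -0.56 under 400 bases toward 0 at longer lengths, and all 83 points lie below 0.

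The summed level in TPM fell at both steps in KO and crossed that of WT, as most single genes did in CPM. In WT the summed TPM rose mostly between passages 3 and 4, while the single genes rose in CPM between passages 2 and 3. These 2 readings differ in scale. As a share of expected counts the 86 genes held 2.41%, 2.71% and 2.78% in WT, with the larger step also between passages 2 and 3. The 86 genes held 7.20%, 7.34% and 7.88% of TPM in WT at passages 2, 3 and 4 and 8.54%, 7.18% and 6.75% in KO. The ratio of KO to WT was 1.19, 0.978 and 0.856. The 60S genes alone gave 4.07%, 4.19% and 4.52% in WT and 4.81%, 4.13% and 3.87% in KO, and the 40S genes 3.05%, 3.06% and 3.28% in WT and 3.62%, 2.96% and 2.80% in KO. Both subunits had their highest share in KO at passage 2 and their lowest in KO at passage 4. Other protein-coding genes under 600 bases held 3.90%, 4.27% and 3.96% in WT and 4.58%, 4.26% and 3.71% in KO. Genes of 3000 bases or more were at 18.7%, 15.8% and 16.8% in WT and 15.1%, 16.5% and 18.5% in KO. Mitochondrially encoded transcripts held 1.55%, 0.990% and 0.848% in WT and 1.23%, 1.48% and 1.62% in KO. The share of the long genes and that of the mitochondrial transcripts thus moved over passages in KO in the opposite direction to the ribosomal proteins. With mitochondrially encoded transcripts left out of the total, the ratio of KO to WT for the 86 genes was 1.18, 0.983 and 0.862. The part of the long genes in the result was not tested.

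**Figure D5:**
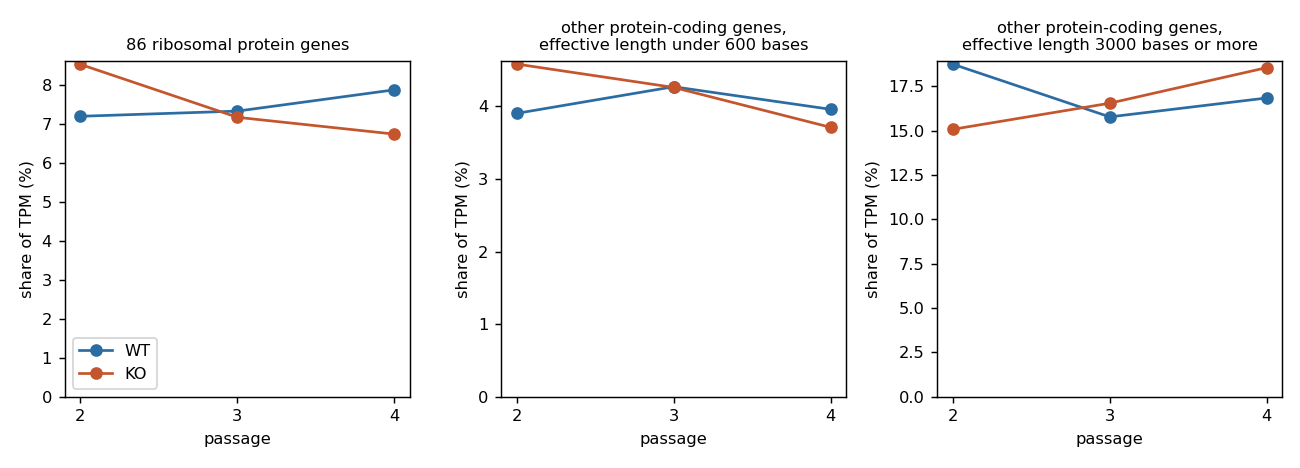
Share of all TPM by passage in WT (blue) and KO (orange), for the 86 ribosomal protein genes, for other protein-coding genes with an effective length under 600 bases and for those of 3000 bases or more, each point being 1 library. The ribosomal protein share in KO runs from 8.54% at passage 2 to 6.75% at passage 4, and that of long genes from 15.1% to 18.5%.

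Over passages with genotype as a covariate, 1 of the 84 genes was called, Rpl22l1, against 6.25% of all tested genes. The median slope of the 84 was -0.08 log2 per passage, against 0.00 over all genes, and 75 of 84 were below 0. Rpl22l1, a paralog of Rpl22 that has been described as replacing it and as rising when Rpl22 is lost, had 59.6, 54.6 and 44.3 CPM in WT and 56.0, 36.6 and 31.3 in KO. It fell by 0.32 on the log2 scale per passage (SE 0.070, edgeR adjusted p = 0.0376), and each passage was lower than the one before in both genotypes. The call did not hold without the WT library of passage 2 or 4 or without any 1 of the KO libraries, where the smallest adjusted p was 0.0643. The markers of other cell types moved in the same direction, with 14 of 14 tested macrophage markers called lower over passage, 5 of 9 endothelial, 4 of 8 epithelial, 3 of 6 muscle and 3 of 8 neural markers, against 0 of 10 fibroblast markers, and their part in the slope of Rpl22l1 was not tested. Rpl22 itself stood at 486, 499 and 510 TPM in WT and 552, 429 and 432 in KO, above Rpl22l1 in every library.

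Among other slopes over passage, the largest positive ones were those of Rpl5 (0.14) and Rpl39l (0.14), then Rps19bp1 (0.04), Rps27l (0.04) and Rpl10a (0.02). With copies added, Rpl5 and Rpl10a turned to -0.07 each. The other 3 have 0 copies each, so this step could not change their counts. In the counts without copies, the most negative slopes after that of Rpl22l1 were those of Rpl35a (-0.18), Rpl39 (-0.17), Rps2 (-0.16) and Rpl12 (-0.14). None of these was called. Without the KO library of passage 2 the median slope of the 84 was 0.09, and without the WT library of passage 2 it was -0.24, so the sign of the pooled slope rests on single libraries.

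The paralogs spanned a wide range of levels. Rps27l, a p53-induced relative of Rps27, had 187, 234 and 288 TPM in WT and 326, 261 and 257 in KO, below Rps27 at 923 TPM or more in every library. Its slope difference was -0.69 (SE 0.131, edgeR adjusted p = 0.548), and DESeq2 called it. Rpl36al, a relative of the X-linked Rpl36a, had 290 to 312 TPM in WT and 292 to 402 in KO. Rpl39l, a relative of Rpl39 known from testis, had 16.1, 23.8 and 23.6 TPM in WT and 17.5, 18.5 and 20.1 in KO. Rps27rt, a retrogene of Rps27, had 14.8 to 27.1 TPM and shared 90.7% of its 64-base words with other genes, so its value is uncertain. Rpl7l1 had 46.3 to 81.0 TPM, while Rpl7 had at least 1008.

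The family had 4 X-linked genes and 0 on the Y chromosome. Rps4x, a 40S protein with a Y-linked counterpart in humans but not in mice, had 560, 618 and 607 CPM in WT and 646, 535 and 486 in KO, a log2 change of -0.10 (SE 0.128, edgeR adjusted p = 0.706). Rpl10, at the subunit interface, had 394, 481 and 450 CPM in WT and 522, 421 and 316 in KO, a log2 change of -0.07 (SE 0.184). Rpl36a had 58.1 to 68.7 CPM in WT and 52.0 to 68.7 in KO. In all 4 X-linked genes, Rpl39 included, the genotypes overlapped, and 0 of the 4 was called in the 3 edgeR fits (genotype, slope and slope difference). Those fits called 2.48%, 6.25% and 0% of all genes, so 0 of 4 says little about X-linked genes.

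Related genes were read from lists. Fau, which encodes a 40S protein fused to a ubiquitin-like part, had 244, 317 and 300 CPM in WT and 294, 262 and 230 in KO, a slope difference of -0.33 (SE 0.126, edgeR adjusted p = 0.691). Rack1, a 40S scaffold for signalling proteins, had 578, 606 and 640 CPM in WT and 687, 606 and 545 in KO, a slope difference of -0.24 (SE 0.102, edgeR adjusted p = 0.732). Neither was called by edgeR. The 15 other mRNAs known to carry a TOP tract, which include elongation factors, had a median slope difference of -0.13 and a median genotype change of -0.01. In that list 0 of 15 were called between genotypes, against 2.48% of all genes, and 1 over passage, against 6.25%. That was Hnrnpa1, an RNA-binding protein, which fell by 0.29 on the log2 scale per passage (SE 0.068, edgeR adjusted p = 0.0461).

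Of 21 regulators of these mRNAs and of mTORC1 signalling, 0 were called between genotypes (2.48% of all genes) and 1 over passage (6.25% of all genes), the kinase gene Rps6ka3, which fell by 0.34 on the log2 scale per passage (SE 0.062, edgeR adjusted p = 0.0207). Larp1, which encodes the TOP-binding repressor, had 322, 257 and 330 CPM in WT and 396, 372 and 355 in KO, a log2 change of 0.30 (SE 0.123, edgeR adjusted p = 0.210). Mtor had 65.4 to 68.1 CPM in WT and 69.0 to 72.0 in KO, a log2 change of 0.08. With passage as a block 1 of the 21 was called, against 11.1% of all genes. That was Eif4e, the cap-binding protein, higher in KO at 73.1 to 78.6 CPM in WT and 92.5 to 110 in KO. Of 16 chaperones and importers of ribosomal proteins 0 were called between genotypes, with a median log2 change of 0.45, and with passage as a block 7 were called, all higher in KO, where 11.1% of all genes were called. The 7 were Ltv1, Ipo5, Heatr3, Rpf2, Grwd1, Rrs1 and Ipo7. Grwd1, a histone-binding and assembly factor, had 12.6, 8.61 and 15.4 CPM in WT and 29.3, 23.2 and 19.7 in KO. Rpf2 and Rrs1, which recruit the 5S particle with Rpl5 and Rpl11, had log2 changes of 0.74 and 0.65 without the block.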

How the data were processed

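RNA-seq of 6 mouse embryonic fibroblast libraries was analysed from the deposited RSEM tables. The submitters' processing notes name Trimmomatic 0.39 for read trimming, RSEM for quantification and GRCm38 as the build. For RSEM's version, the annotation and strand handling, values were not given in these sources. The deposited expected counts divide ambiguous reads among genes by a model, and 12.0% to 15.8% of values were not whole. The deposited TPM values and effective lengths come from the same tables. The estimated counts were rounded, scaled by TMM and tested with edgeR 4.0.16 (R 4.3.3, 2-sided, robust quasi-likelihood fit), keeping genes that passed its filter by genotype (minimum count 10). Fits held genotype alone (4 residual degrees of freedom), a linear passage slope with genotype (3), or the difference of slopes (2). DESeq2 1.42.0 and limma 3.58.1 (log2 of TPM + 1) were alternatives. Calls used Benjamini-Hochberg adjusted p under 0.05 over all 16603 genes.

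Of the listed genes, 55227 matched GENCODE M21 symbols on GRCm38. A count of 0 allows up to 3 counts, or 0.0443 to 0.121 CPM before scaling, for counting error only. Over all tested genes, WT and KO libraries of the same passage deviated together (correlations 0.488, 0.137 and 0.416), so passage pairs them there. Most genes of the family instead moved in opposite directions over passage in WT and KO. The members and lists were chosen with earlier results of these data known. Genes named in full were those called in a fit or with the block, the 5 largest rises and falls by genotype and by slope, the 3 highest and 3 lowest subunit genes by TPM, all X-linked genes, all paralogs and the 5 with the largest range. Larp1, Mtor, Grwd1, Rpf2, Rrs1, Rplp2, Rps13, Rpl3 and Rpl4 were named after their values were seen. Alternatives covered the block, tools, scaling, filter, lengths, the genotype tag, left-out libraries, left-out mitochondrial transcripts and added copies. Scripts were tested on simulated data. Results of some genes are not reported here.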

Additional observations from a re-analysis of the deposited data

How the results depend on the processing

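Between genotypes 2 genes were called in place of 0 with the passage block (a paired analysis), with DESeq2 and with no filter on low counts, and they were Rpl29 and Rps7 each time. The block changed no other call among the 84 genes. Over all genes, 412 were called, against 1835 with the block, 1661 with DESeq2, 846 with no filter, 191 on log2 TPM with limma, 59 without both passage 2 libraries, 0 under the genotype tag, and 38 to 847 when 1 library was left out. The genotype median of the 84 ran from -0.31 to 0.01 with 1 library left out, and was -0.39 without both passage 2 libraries and 0.30 under the genotype tag (1 KO against 5 WT libraries). For the passage slope, 0 genes in place of 1 were called with limma on log2 TPM, and 0 to 1 with 1 library left out. All genes called over passage numbered 1038, against 2443 with no filter, 1709 with DESeq2, 608 with limma and 278 to 1286 with 1 library left out. The median slope ran from -0.24 to 0.09 with 1 library left out. For the difference of slopes, DESeq2 called 13 of the 84 genes and 83 in all, the unfiltered fit 34 and 289, and edgeR 0 to 10 in all and 0 of the 84 with 1 library left out. Its median over the 84 ran from -0.64 to -0.28 with 1 library left out, was -0.48 with copies added, and kept its sign in every alternative run. As a share of expected counts, the ratio of KO to WT was 1.30, 0.932 and 0.795 at passages 2, 3 and 4. With copies added to TPM it was 0.962 at passage 3 and 0.844 at passage 4. The cause of these differences was not tested. Alternatives for the slope difference on other scalings, with copies added and with libraries left out were chosen after seeing the data.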

Other observations

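Of 88 copies tested, edgeR called 5 between genotypes, where 2.48% of all genes were called, and of the 5, 3 were higher and 2 lower in KO. The lower pair were Gm8210 and Gm13841, the Rpl29 copies described above. The higher ones were Gm10020 and Rpl15-ps2, both copies of Rpl15, and Gm9493, a copy of Rps7. Gm10020 (chromosome 15, 52477617 to 52478228) had 2.93, 3.98 and 2.61 CPM in WT and 62.5, 53.9 and 45.4 in KO (edgeR adjusted p = 0.000664). Rpl15-ps2 (chromosome 9, 72060937 to 72061549) had 0.071, 0.30 and 0.12 CPM in WT and 21.5, 22.1 and 18.2 in KO (edgeR adjusted p = 0.000664). Gm9493 (chromosome 19, 23619749 to 23620319) had 0.94, 0.85 and 0.66 CPM in WT and 5.66, 3.31 and 2.80 in KO (edgeR adjusted p = 0.0231). In each of the 5 the 3 libraries of one genotype lay apart from the 3 of the other. The 5 were picked by their call on the same libraries, so this gap is no separate support. Gm8210 and Gm13841 also share 1 set of values. Of all tested genes, 13.1% lay higher in KO without overlap and 14.1% lower. Copies of Rpl15 did not all move 1 way. Rpl15-ps3 (chromosome 9, 22185607 to 22186221) was not called but was lower in KO (edgeR adjusted p = 0.0798). It had 24.6, 73.4 and 59.8 CPM in WT and 0.54, 8.19 and 5.84 in KO.

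Among the 66 genes with a RefSeq start, the 35 with a pyrimidine run had a median slope difference of -0.46 log2 per passage and a median effective length of 506 bases. The 31 without one had -0.36 and 648 bases. The run and the length move together here, and their parts were not tested.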
